A study of Mus musculus with 24 samples.

Results

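H3K27ac peaks in the strong-promoter chromatin state but away from the gene start listed beside them were described in mouse dentate gyrus neurons. A peak was taken when its ChromHMM state was strong promoter and its width was under 10000 bp. Its listed distance to a transcription start site (TSS) also had to be over 5000 bp. Of 144154 peaks, 2262 met the rule, which was 1.57% of all peaks and 14.5% of the 15627 peaks in the strong-promoter state. They are called distal strong-promoter peaks. H3K27ac is the acetylation of lysine 27 on histone H3. It was mapped by low-input chromatin immunoprecipitation sequencing in nuclei sorted for the neuronal protein NeuN from male mice aged 12 weeks, whose strain is given as C57BL/6 and, in the protocols, C57BL/6J. No transgene or mutant allele is named, and whether a library holds 1 mouse or a pool is not given in the sources used here. In the Veh-Context group mice received vehicle and were placed in the conditioning chamber without shock. In the Veh-CFC group vehicle was followed by contextual fear conditioning, with 2 foot shocks of 0.2 mA after 3 min of habituation. The HDACi-Context and HDACi-CFC groups went through the same 2 protocols after 30 mg/kg of CI-994, a benzamide that blocks class I histone deacetylases. Injection was 1 h before the behaviour and mice were killed 1 h after it, and each group had 3 libraries. Conditioning was assigned by cage, so effects of shock and of cage cannot be told apart.

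Promoters carry H3K27ac together with methylation of lysine 4, on nucleosomes that flank the site where RNA polymerase II starts. A chromatin segmentation such as ChromHMM learns combinations of marks and gives each stretch of the genome a state, and it does so without looking at gene annotation. A strong-promoter state away from an annotated start can therefore fall on the start of a long noncoding RNA (lncRNA), on an unlisted alternative promoter, on a pseudogene, or on an enhancer with a promoter-like set of marks. Class I deacetylases remove acetyl groups from histone tails, and CI-994 is used to raise acetylation in neurons. Contextual fear conditioning activates granule neurons of the dentate gyrus and induces immediate early genes in a sparse share of them.

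RefSeq starts of the assembly GRCm38.p6 lay inside 133 of the 2262 distal strong-promoter peaks (5.88%). The share was 4.32% of all peaks, 4.06% of active enhancers and 26.3% of strong-promoter peaks within 1000 bp of a TSS. For the 133 peaks the 300-base window from 250 bases before the start to 50 after it was available, giving 165 windows. Of the 133 peaks, 118 (88.7%) held the start of a lncRNA and 15 that of a protein-coding gene. The lncRNA share was 57.3% in active enhancers with a start and 35.2% over all peaks with one. The distance rule itself leaves out peaks near listed starts. The windows below are shown because their peaks recur in the comparisons that follow. They were chosen after the values were seen. Each runs 5′ to 3′ on the strand of the transcript, with every CpG dinucleotide in capitals, since CpG density separates the main classes of vertebrate promoter. Gm29638 starts in the peak listed for Zfp324 (chr7:12949735-12950034, plus strand, 15 CpG). Gm31365 starts within an intron of Tnrc18 (chr5:142811843-142812142, plus strand, 4 CpG). Gm41113 (chr14:25379027-25379326, plus strand, 5 CpG) and Zmiz1os1 (chr14:25378627-25378926, minus strand, 10 CpG) start in opposite directions inside a single peak listed for Zmiz1. Gm26802 starts in a peak listed for Fosb (chr7:19300744-19301043, minus strand, 14 CpG) and Gm39191 in one listed for Jund (chr8:70692306-70692605, minus strand, 5 CpG). Gm36486 starts in the Pim1 peak (chr17:29437530-29437829, minus strand, 6 CpG) and Gm38989 in the Lrp3 peak (chr7:35234765-35235064, minus strand, 22 CpG).
Gm29638: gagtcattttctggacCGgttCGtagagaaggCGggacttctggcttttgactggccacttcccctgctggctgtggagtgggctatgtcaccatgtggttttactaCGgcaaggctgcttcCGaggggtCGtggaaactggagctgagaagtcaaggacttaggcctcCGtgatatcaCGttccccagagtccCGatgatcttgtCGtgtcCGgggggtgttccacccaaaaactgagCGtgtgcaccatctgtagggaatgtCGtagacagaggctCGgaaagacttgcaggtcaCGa
Gm31365: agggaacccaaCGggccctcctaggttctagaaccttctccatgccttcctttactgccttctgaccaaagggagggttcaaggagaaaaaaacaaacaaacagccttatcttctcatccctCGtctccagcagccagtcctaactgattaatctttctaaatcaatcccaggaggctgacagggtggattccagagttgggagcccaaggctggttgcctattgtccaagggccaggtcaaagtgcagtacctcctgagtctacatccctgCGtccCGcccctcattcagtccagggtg
Gm41113: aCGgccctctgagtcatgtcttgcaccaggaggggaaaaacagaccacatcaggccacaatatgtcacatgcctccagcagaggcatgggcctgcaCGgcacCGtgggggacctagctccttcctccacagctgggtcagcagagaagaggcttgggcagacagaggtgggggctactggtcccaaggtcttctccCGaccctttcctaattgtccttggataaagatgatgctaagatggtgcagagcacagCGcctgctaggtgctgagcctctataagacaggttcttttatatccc
Zmiz1os1: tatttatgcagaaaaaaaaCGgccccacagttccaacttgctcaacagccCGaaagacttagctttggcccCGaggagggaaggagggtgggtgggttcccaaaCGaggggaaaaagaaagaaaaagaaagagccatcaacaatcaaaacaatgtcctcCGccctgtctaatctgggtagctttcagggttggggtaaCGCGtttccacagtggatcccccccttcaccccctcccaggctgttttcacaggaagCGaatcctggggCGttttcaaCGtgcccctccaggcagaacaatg
Gm26802: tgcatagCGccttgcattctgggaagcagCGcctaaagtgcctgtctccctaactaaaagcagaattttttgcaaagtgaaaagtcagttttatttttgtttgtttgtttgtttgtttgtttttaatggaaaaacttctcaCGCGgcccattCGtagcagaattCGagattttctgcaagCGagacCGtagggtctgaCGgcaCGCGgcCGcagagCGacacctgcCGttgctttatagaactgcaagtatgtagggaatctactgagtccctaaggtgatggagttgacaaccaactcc
Gm39191: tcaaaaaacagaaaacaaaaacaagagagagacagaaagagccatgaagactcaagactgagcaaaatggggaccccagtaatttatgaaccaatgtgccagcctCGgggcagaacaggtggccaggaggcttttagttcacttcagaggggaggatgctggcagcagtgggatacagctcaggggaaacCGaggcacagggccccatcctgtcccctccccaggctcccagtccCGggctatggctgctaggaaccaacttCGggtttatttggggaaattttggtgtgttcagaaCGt
Gm36486: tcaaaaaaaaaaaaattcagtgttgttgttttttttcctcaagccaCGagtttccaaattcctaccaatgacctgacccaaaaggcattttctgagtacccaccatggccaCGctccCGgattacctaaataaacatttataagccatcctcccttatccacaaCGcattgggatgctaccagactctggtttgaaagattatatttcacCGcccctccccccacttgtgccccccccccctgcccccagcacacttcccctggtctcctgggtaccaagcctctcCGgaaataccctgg
Gm38989: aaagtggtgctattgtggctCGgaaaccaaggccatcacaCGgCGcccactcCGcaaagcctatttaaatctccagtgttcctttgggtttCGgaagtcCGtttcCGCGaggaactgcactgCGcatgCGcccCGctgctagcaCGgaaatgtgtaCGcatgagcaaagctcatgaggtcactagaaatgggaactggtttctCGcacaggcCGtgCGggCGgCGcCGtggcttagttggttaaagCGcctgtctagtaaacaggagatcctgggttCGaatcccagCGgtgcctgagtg

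The windows inside distal strong-promoter peaks held a median of 7 CpG (quartiles 5 and 11) and a median GC content of 51.0%. Windows in strong-promoter peaks within 1000 bp of a TSS held a median of 15 CpG and 55.7% GC, and all 32851 RefSeq windows a median of 7 CpG and 52.7% GC. Short motifs were searched on both strands. The GC box GGGCGG was in 27.9% of the 165 windows in distal strong-promoter peaks, in 46.2% of the 3059 windows at a TSS and in 35.7% of all windows. The ETS motif CCGGAAG was in 3.64%, 19.1% and 8.86% of them in the same order. The CCAAT box was in 42.4%, 39.2% and 37.4%, the TATA box TATAAA in 12.1%, 8.53% and 13.6%, and the cyclic AMP response element TGACGTCA in 2.42%, 3.27% and 1.79%. E-boxes (CANNTG) were in 73.9%, 67.3% and 72.3%, and AP-1 motifs (TGANTCA) in 6.06%, 5.26% and 7.81%. The windows of distal strong-promoter peaks thus held fewer CpG, GC boxes and ETS motifs per window than those at a TSS, as a description of letters and not of binding. Of the windows printed above, those of Gm31365, Zmiz1os1, Gm36486 and Gm38989 held a GC box, and those of Gm41113, Gm26802 and Gm36486 a TATA box.

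Among the 15 peaks with a protein-coding start, the start belonged to the gene listed beside the peak in 7, namely Zfp72, Ip6k2, Pde4b, Ppfia4, Gpr63, Cfap126 and Tctex1d1. Pde4b encodes a phosphodiesterase that degrades cyclic AMP, and its peak lay 148879 bp from the TSS listed in the file. Other protein-coding starts lay in peaks that the file lists under another gene, such as Opcml, a neuronal adhesion protein, in the peak listed for Spata19 at 395493 bp, and Robo2, an axon guidance receptor, in the peak listed for Lipi at 138686 bp. The gene beside a peak is therefore the nearest start in the authors' annotation and need not be the gene the peak belongs to.

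The peaks were placed at a median of 28468 bp from the listed TSS, and 401 lay over 100 kb away. Upstream and downstream positions were about equally frequent, with 1111 and 1151 peaks. Between genes lay 1476 (65.3%, against 30.2% of all peaks), in introns 661 (29.2%, against 58.1%), in exons 54, at transcription termination sites 39, in 3′ UTRs 21, in noncoding transcripts 8 and in 5′ UTRs 3. Width had a median of 1083 bp (quartiles 718 and 1685, range 246 to 9941). The nearest other peak lay at a median of 3678 bp, against 582 bp for strong-promoter peaks within 1000 bp of a TSS and 576 bp for active enhancers. Another peak within 1000 bp was found for 34.0% of distal strong-promoter peaks, for 71.9% of those at a TSS and for 54.8% of all peaks. The percent that the file gives beside the state, whose meaning is not described, had a median of 64.9 here, 80.0 in strong-promoter peaks at a TSS and 91.6 in active enhancers. Just outside the distance threshold stood peaks of Ccdc149 at 4976 bp, Gm13056 at 4988 bp and Tmem107 at 5000 bp, and just inside it those of 1700017L05Rik at 5010 bp, Plek2 at 5026 bp and Cd274 at 5036 bp. By width, peaks of Kif3c (10082 bp), Slc8a2 (10198 bp) and Trim8 (10215 bp) fell just outside and those of Gm29681 (9827 bp), Qk (9845 bp) and Mir222 (9941 bp) just inside.

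In all, 1831 genes were listed beside the peaks and 1506 of them had a single distal strong-promoter peak. Tenm3, a teneurin of synaptic wiring, had the most, with 6. Zinc finger genes were listed for 55 peaks (2.43%, against 1.40% of all peaks and 3.74% of strong-promoter peaks at a TSS) and olfactory or vomeronasal receptor genes for 14 (0.619%, against 0.123% and 0.0111%). Another distal strong-promoter peak within 10 kb was present for 400 peaks, so neighbouring peaks were not independent regions. Read counts scaled to a library total adjusted by TMM (CPM) had a median of 3.45 per peak, the same as in strong-promoter peaks at a TSS and below the 4.94 of the wider active-enhancer peaks. Per kilobase the median was 3.21 CPM (quartiles 2.60 and 4.04), against 3.68 at a TSS, 2.94 in active enhancers and 2.82 over all peaks. The highest per kilobase, at 62.2 CPM, was chr2:98666115-98667446 listed for Lrrc4c, which was chosen by rank and stands far above the next, a Lncppara peak at 11.6, one of Zbtb43 at 11.4 and the other of Lncppara at 11.2 CPM per kb. Among the 10 highest were also peaks of Mir99ahg (9.26), 1810026B05Rik (9.21), Gm16675 (9.07), 6430706D22Rik (9.07) and Gxylt1 (8.37).

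Total counts in peaks ranged from 6639158 (Veh-Context replicate 2) to 16734757 (HDACi-Context replicate 2). Distal strong-promoter peaks took 1.30, 1.31 and 1.35% of them in Veh-Context, 1.40, 1.37 and 1.31% in Veh-CFC, 1.12, 1.07 and 1.14% in HDACi-Context and 1.31, 1.24 and 1.26% in HDACi-CFC. The 3 HDACi-Context libraries were the lowest and did not overlap the other groups (mean 1.11% ± 0.0398, SD, n = 3, against 1.32% ± 0.0249 in Veh-Context, 1.36% ± 0.0493 in Veh-CFC and 1.27% ± 0.0339 in HDACi-CFC). In strong-promoter peaks at a TSS the means were 3.28% ± 0.0441 in HDACi-Context, 4.24% ± 0.141 in HDACi-CFC, 4.49% ± 0.158 in Veh-Context and 5.15% ± 0.322 in Veh-CFC. In active enhancers they were, in the same order, 45.0% ± 1.29, 50.0% ± 0.293, 47.6% ± 0.83 and 48.4% ± 0.625. No p-value is given for a sum over peaks. Fewer cells with a peak and less acetylation per cell cannot be told apart in these bulk libraries.

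**Figure D1:**
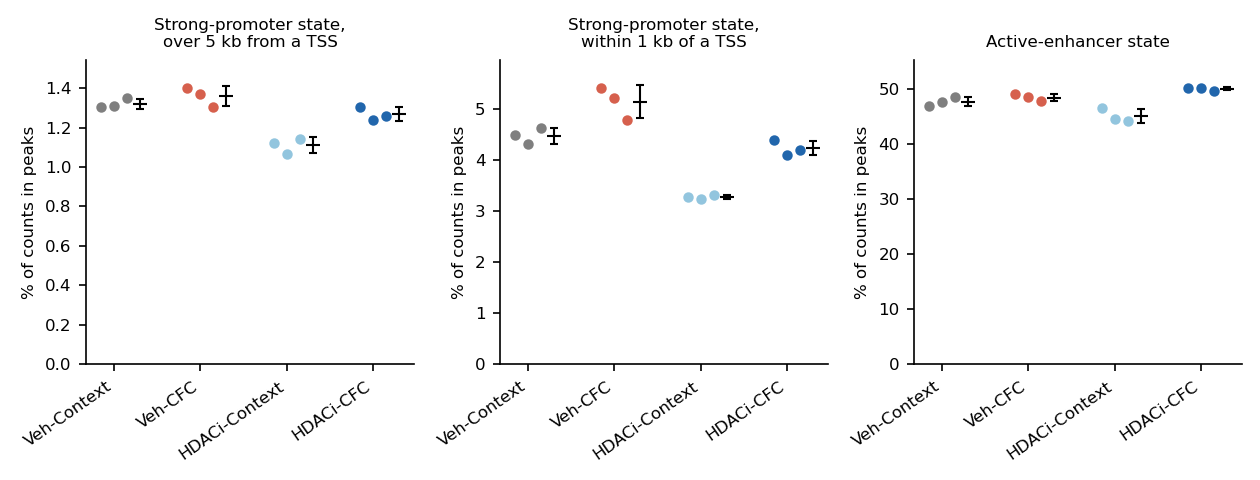
Share of each library's counts in peaks (%, y axis from 0) taken by distal strong-promoter peaks, strong-promoter peaks within 1000 bp of a TSS and active-enhancer peaks, by group; points are libraries and the bar is the mean ± SD (n = 3). HDACi-Context is lowest in all 3 panels by mean, at 1.11%, 3.28% and 45.0%.

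The labelled cells were checked by their markers. All 14 dentate granule markers had a promoter peak, and the promoter of Rbfox3, which encodes NeuN, held 110 to 280 CPM over the 12 libraries. Of 18 interneuron markers 5 had one, namely Gad1, Cck, Erbb4, Adarb2 and Sox6. Those without one included Gad2, Sst, Pvalb, Vip and Slc32a1. The median of the 5 was 3.47 CPM per kb, against 4.32 for granule and 2.57 for CA pyramidal markers. Summed, the 5 held 87.3 to 97.5 CPM in Veh-Context, 99.7 to 112 in Veh-CFC, 60.6 to 66.6 in HDACi-Context and 84.0 to 103 in HDACi-CFC. The sample titles name the hippocampus and the tissue label adds the dentate gyrus. Of 14 markers of CA pyramidal neurons 11 had a promoter peak, and their sums were 108 to 123 CPM in Veh-Context, 139 to 162 in Veh-CFC, 86.4 to 102 in HDACi-Context and 141 to 161 in HDACi-CFC. Markers of other cells were present too, at 15 of 16 oligodendrocyte, 8 of 9 oligodendrocyte precursor, 11 of 14 astrocyte, 10 of 14 microglial and 3 of 12 endothelial and mural genes. The summed oligodendrocyte promoters held 261 to 292 CPM in Veh-Context, 336 to 364 in Veh-CFC, 189 to 197 in HDACi-Context and 304 to 316 in HDACi-CFC, and the summed granule markers 548 to 609, 628 to 763, 437 to 541 and 548 to 712. The microglial sums were 37.6 to 43.9, 49.5 to 65.5, 30.9 to 34.5 and 42.5 to 43.7 CPM. The granule, interneuron, pyramidal, oligodendrocyte and microglial sums were thus lowest in HDACi-Context alike. The part of other cell types in the results below was not tested.

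Foot shock under the drug gave the most calls, and the question is which promoter-like sites changed when drug-treated mice were conditioned. Between HDACi-CFC and HDACi-Context, 748 of 2261 tested distal strong-promoter peaks rose (33.1%, against 20.2% of all peaks) and 137 fell (6.06%, against 17.8%). The rises were listed beside 676 genes and had a median log2 change of 1.04 (0.28 to 4.61). Over all tested distal strong-promoter peaks the median change was 0.27, against -0.05 over all peaks, 0.46 in strong-promoter peaks at a TSS (42.5% rose) and 0.11 in active enhancers. At an unadjusted p under 0.05, 886 lay above 0 and 200 below, 1086 of 2261 in all. Of all 144014 tested peaks 67973 passed in either direction, which is about the same share. The split moved with scaling: with library totals in place of TMM factors 611 rose and 240 fell, so 71.8% of calls were rises instead of 84.5%, while the median of all peaks moved to -0.18 and the median of these peaks to 0.15. Falls numbered 80 without HDACi-CFC replicate 3 and 56 without HDACi-Context replicate 3.

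**Figure D2:**
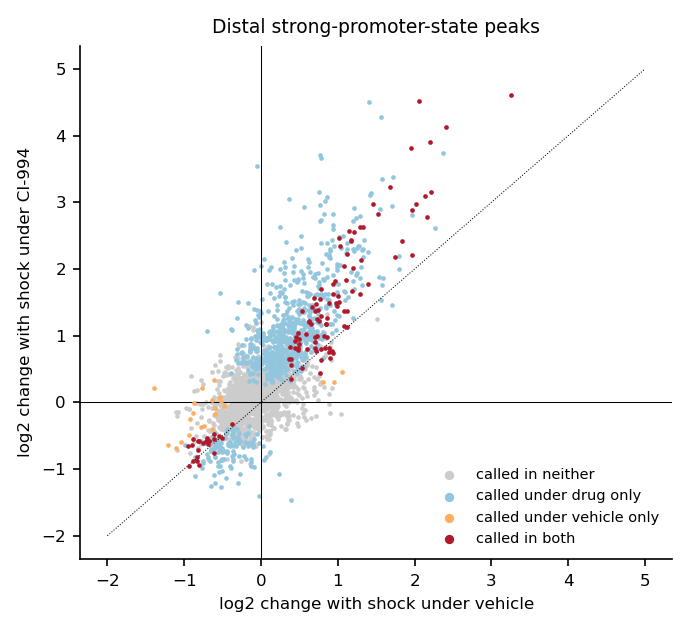
Log2 fold change with foot shock under vehicle (x axis) and under the drug (y axis) for the 2261 tested distal strong-promoter peaks, 1 point a peak. The 2 contrasts share no library, and 1686 points have the same sign in both. The signs were counted in distal strong-promoter peaks only.

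The largest rises among called peaks whose groups did not overlap were at peaks close to empty without shock. At a peak listed for Ubtf and annotated to an exon (chr11:102309345-102311041), Ubtf being the upstream binding factor of RNA polymerase I, the level was 0.149, 0.147 and 0.662 CPM in Veh-Context, 5.39, 3.18 and 1.70 in Veh-CFC, 0.626, 0.0580 and 0.0680 in HDACi-Context and 6.23, 5.72 and 6.22 in HDACi-CFC. Every HDACi-CFC library was above 5 CPM and every HDACi-Context library below 1 CPM, and under vehicle the groups did not overlap either. The log2 change was 4.61 ± 0.46 under the drug (adjusted p = 5.2e-08) and 3.25 ± 0.53 under vehicle (adjusted p = 0.0013). In an intron of Shank1 (chr7:44336231-44336932), a scaffold of the postsynaptic density, it was 0.373, 0.147 and 1.10 CPM in Veh-Context, 4.88, 3.08 and 1.84 in Veh-CFC, 0.348, 0.232 and 0.0680 in HDACi-Context and 4.42, 3.33 and 4.03 in HDACi-CFC. The HDACi-CFC libraries lay at 3 CPM or more and every Context library of either drug group near 1 CPM or below. The change was 4.13 ± 0.44 under the drug (adjusted p = 2.2e-09) and 2.41 ± 0.42 under vehicle (adjusted p = 0.00083). An intronic peak listed for Rab3a, a small GTPase of synaptic vesicles, changed by 4.28 ± 0.73 (adjusted p = 0.0008). At chr13:98573197-98573758 (Tmem174) and chr5:131537597-131537913 (Gm29681) all 3 HDACi-Context libraries were at the deposited minimum of 1 count, so the rises are at least 8.60-fold and at least 8.78-fold against a floor of 3 counts per library. These peaks held few reads, with counts of 2, 1, 9, 9, 1, 1 at Ubtf in the 6 Context libraries.

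Wide, strongly marked peaks also rose. Lncppara, a long noncoding RNA, was listed for a pair of neighbouring peaks. The peak chr15:85672066-85679163, 7098 bp wide and 28159 bp from the TSS, held 57.3, 60.2 and 65.4 CPM in Veh-Context, 127, 106 and 117 in Veh-CFC, 37.2, 31.4 and 25.9 in HDACi-Context and 95.6, 112 and 116 in HDACi-CFC. All 4 groups were separate from one another except that HDACi-CFC and Veh-CFC overlapped. It rose by 1.78 ± 0.12 on the log2 scale under the drug (adjusted p = 1.3e-14) and by 0.93 ± 0.12 under vehicle (adjusted p = 1e-05). Its neighbour chr15:85661089-85670393 held 98.5, 101 and 110.5 CPM in Veh-Context, 177, 154 and 174 in Veh-CFC, 49.2, 45.0 and 38.4 in HDACi-Context and 98.7, 126 and 118 in HDACi-CFC, and there the HDACi-Context libraries were the lowest and the Veh-CFC libraries the highest. The shock changes were 1.37 ± 0.11 under the drug (adjusted p = 3.6e-12) and 0.70 ± 0.11 under vehicle (adjusted p = 0.00022). At the Gm31365 start in Tnrc18 the level was 18.1, 20.8 and 25.4 CPM in Veh-Context, 58.1, 39.2 and 39.5 in Veh-CFC, 14.9, 12.2 and 10.3 in HDACi-Context and 50.5, 52.4 and 50.7 in HDACi-CFC. The CFC libraries of each drug group stood above its Context libraries, with changes of 2.04 ± 0.15 (adjusted p = 2.8e-12) and 1.08 ± 0.15 (adjusted p = 6e-05). The peak with the divergent Gm41113 and Zmiz1os1 starts, near the transcriptional coregulator Zmiz1, changed by 1.37 ± 0.18 under the drug (adjusted p = 1.8e-07) and by 0.47 ± 0.19 under vehicle (adjusted p = 0.11).

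Immediate early genes, which neuronal activity switches on within minutes, had distal strong-promoter peaks at 14 of 37 listed genes. Of these 21 peaks 9 rose with shock under the drug (median 0.45), where 20.2% of all peaks and 33.1% of distal strong-promoter peaks did. None fell, against 17.8% and 6.06%. With shock under vehicle 1 rose, against 4.41% and 4.25%. With the drug in Context mice 1 fell, against 5.85% and 15.5%. In the edgeR fit 1 of the 21 was below 0 at an unadjusted p under 0.05 with shock under the drug, and DESeq2 called 8 rises and 0 falls. Nr4a1, an orphan nuclear receptor of this class, had a peak at chr15:101255529-101257381, 10391 bp from its start, with 3.06, 1.77 and 2.43 CPM in Veh-Context, 6.55, 4.03 and 5.52 in Veh-CFC, 3.41, 2.67 and 2.45 in HDACi-Context and 6.88, 5.82 and 6.05 in HDACi-CFC. Every CFC library was above every Context library. The change was 1.15 ± 0.21 under the drug (adjusted p = 3.4e-05) and 1.07 ± 0.24 under vehicle (adjusted p = 0.0058), the latter held in 11 of 12 fits that each left out 1 library. A second Nr4a1 peak rose by 0.81 under the drug (adjusted p = 0.016). Peaks of its relatives Nr4a2 (2.29 ± 0.55, adjusted p = 0.0012) and Nr4a3 (0.60 ± 0.15, adjusted p = 0.002) rose under the drug. The Gm39191 start near Jund, an AP-1 subunit, held 2.02, 1.32 and 2.28 CPM in Veh-Context, 2.70, 2.97 and 1.42 in Veh-CFC, 1.60, 1.85 and 1.02 in HDACi-Context and 3.48, 3.12 and 3.02 in HDACi-CFC. Its HDACi-CFC libraries lay above all 3 HDACi-Context libraries, whereas the vehicle groups overlapped. It rose by 1.09 on the log2 scale (adjusted p = 0.002). Peaks listed for Trib1, a pseudokinase gene, and Ier2, 22695 bp from its start, rose by 1.63 (adjusted p = 0.00016) and 0.81 (adjusted p = 0.014). The Klf4 peak rose by 0.71 (adjusted p = 0.021) and a Fosb peak by 0.48 (adjusted p = 0.02). The second Nr4a1 peak, Ier2, Klf4 and Fosb were called in 8, 10, 9 and 9 of 12 fits that each left out 1 library, and DESeq2 did not call Klf4. The other Fosb peak, with the Gm26802 start, held 19.7, 20.0 and 20.7 CPM in Veh-Context, 12.8, 19.8 and 17.7 in Veh-CFC, 15.1, 15.0 and 13.5 in HDACi-Context and 14.0, 14.1 and 15.3 in HDACi-CFC. The Veh-Context libraries were above the HDACi-Context libraries, and the CFC groups overlapped. It fell with the drug in Context mice, with a log2 change of -0.47 ± 0.13 (adjusted p = 0.019), and its shock change under the drug was -0.01 ± 0.14 (adjusted p = 0.97).

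Late response genes had 4 such peaks, of which 2 rose with shock under the drug. The share of rises was 20.2% over all peaks and 33.1% over distal strong-promoter peaks. At the Gm36486 start listed for Pim1, a serine/threonine kinase, the level was 8.21, 7.21 and 10.4 CPM in Veh-Context, 15.7, 12.3 and 9.34 in Veh-CFC, 6.74, 6.43 and 4.49 in HDACi-Context and 11.4, 10.7 and 9.83 in HDACi-CFC. All HDACi-CFC libraries were above all HDACi-Context libraries, with a change of 0.85 ± 0.17 (adjusted p = 0.00017), and the drug change in Context was -0.57 ± 0.18 (adjusted p = 0.035). Sertad1 rose by 0.97 (adjusted p = 0.0014). Of 3 peaks at cyclic AMP, calcium and MAP kinase genes, 2 rose with shock under the drug, beside the same shares. They were those of Adcy5, an adenylyl cyclase, and Mapk3, which encodes ERK1.

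Developmental transcription factors had the most list members here, with 34 peaks at 23 of 74 genes. With shock under the drug 17 rose, against 20.2% of all peaks and 33.1% of distal strong-promoter peaks, and none fell, against 17.8% and 6.06% (median 0.59). Of the 34, 1 was below 0 at an unadjusted p under 0.05 in edgeR, and DESeq2 called 15 rises and 0 falls. Under vehicle 2 of the 34 rose, where 4.41% of all peaks and 4.25% of distal strong-promoter peaks did. With the drug in Context mice 4 fell, against 5.85% and 15.5%. Pax2, a paired-box factor of the midbrain and kidney, had 3 rising peaks at 0.82, 2.82 and 3.16. Irx2 rose by 3.09 (adjusted p = 0.0022), Sox5 by 1.31 (adjusted p = 0.0017), Gbx2 by 1.25 (adjusted p = 0.00043) and Lhx5 by 1.06 (adjusted p = 9.9e-05). The Irx2 peak was near empty. It held 1.38, 1.46 and 0.168 CPM in HDACi-CFC and 0.0695, 0.174 and 0.0680 in HDACi-Context, so these groups overlapped. Id3, which sequesters basic helix-loop-helix factors, rose by 1.18 (adjusted p = 0.00012) and Sox4, a factor of neuronal differentiation, by 0.99 (adjusted p = 4.3e-05). Tbr1, which is used in intermediate progenitors and glutamatergic neurons, was called in 3 contrasts, at 0.82 ± 0.13 with shock under the drug (adjusted p = 6.6e-06), 0.48 ± 0.14 with shock under vehicle (adjusted p = 0.029) and -0.45 ± 0.14 with the drug in Context mice (adjusted p = 0.032). The Tbr1 calls under vehicle and in Context held in 8 and 7 of 12 fits that each left out 1 library. With shock under the drug the Pax2 peak of 0.82 was called in 8 of 12, and Sox2 (1.76), Pou3f2 (1.55), Cux2 (1.06) and Id4 (0.95) in 8, 11, 11 and 8. The wide peak chr17:25560731-25570167 listed for Sox8, a factor of the oligodendrocyte lineage, held 33.9, 29.7 and 44.4 CPM in Veh-Context, 79.4, 61.4 and 44.5 in Veh-CFC, 24.7, 21.3 and 16.3 in HDACi-Context and 61.8, 61.1 and 59.9 in HDACi-CFC. The HDACi-Context libraries were the lowest, and the CFC libraries of each drug group were above its Context libraries. Its shock changes were 1.55 ± 0.19 under the drug (adjusted p = 8.9e-06) and 0.77 ± 0.19 under vehicle (adjusted p = 0.022).

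Falls with shock under the drug were smaller and farther from genes, with a median of -0.67 (-1.47 to -0.32) and a median distance of 73730 bp against 22460 bp for the rises. Nrp2, a receptor for class 3 semaphorins, had an intergenic peak at chr1:62696712-62697870 with 5.52, 4.56 and 4.92 CPM in Veh-Context, 3.98, 2.86 and 3.96 in Veh-CFC, 5.77, 7.94 and 8.30 in HDACi-Context and 3.33, 5.20 and 3.78 in HDACi-CFC. The HDACi-Context libraries were above all others, those of Veh-Context included. The change with shock under the drug was -0.86 ± 0.19 (adjusted p = 0.00051). Peaks of Cdh18, a cadherin, fell by 1.47 on the log2 scale (adjusted p = 0.0016), of Stc2 by 1.25 (adjusted p = 0.0012) and of Cavin4, a caveolar coat protein of muscle, by 1.20 (adjusted p = 6.8e-06). Nrg1, a ligand of ErbB receptors, fell by 1.27 (adjusted p = 0.018). Both peaks of Erbb4, its receptor on interneurons, were called as falls in edgeR, at -0.84 (adjusted p = 0.022) and -0.75 (adjusted p = 0.015). Each call held in 9 of 12 fits that left out 1 library, with adjusted p up to 0.43 and 0.15, and DESeq2 made neither. At the first peak HDACi-Context replicate 3 stood at 5.37 CPM against 2.43 and 2.26 in its replicates 1 and 2. Kcnc2, a Kv3 potassium channel, fell under the drug (-0.53 ± 0.15, adjusted p = 0.0057) and under vehicle (-0.51 ± 0.16, adjusted p = 0.048), the latter in 3 of 12 fits that each left out 1 library.

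Without the drug fewer peaks passed. Between Veh-CFC and Veh-Context 96 distal strong-promoter peaks rose (4.25%, against 4.41% of all peaks) and 42 fell (1.86%, against 2.74%), with a median change of 0.04 against 0.00 over all peaks. The share of rises was near that of all peaks. In strong-promoter peaks at a TSS 9.87% rose and the median was 0.24. Of the 96 rises 93 were also among the 748 under the drug (96.9% of 96 and 12.4% of 748), 23 peaks fell in both and none was called in opposite directions. Across the 2261 peaks the log2 changes with shock in vehicle mice and in drug mice had Pearson r = 0.77 and Spearman rho = 0.72. These contrasts share no library, and the values describe peaks that are not replicates. The overlaps and correlations were taken over distal strong-promoter peaks only and are not read as particular to them. Among called peaks whose 2 groups did not overlap, the largest rises under vehicle were those of Ubtf, Shank1, the intronic peak chr17:56883697-56884123 (1700061G19Rik, 2.21), an exonic peak of Tmem198 and an intronic peak of Bcor (2.02). They were called in 12, 12, 9, 11 and 4 of 12 fits that each left out 1 library, and DESeq2 did not call the Bcor peak. By the same rule the largest falls were at Olfr412 (-1.40), Tram1l1 (-1.21), Cenpc1 (-1.11), Nucb2 (-1.05), Rab3d (-0.95) and Apoh (-0.94), called in 9, 6, 5, 8, 10 and 9 of 12 such fits. Sh3gl2, which encodes endophilin A1 of synaptic vesicle endocytosis, changed by 1.05 (adjusted p = 0.035), called in 6 of 12 such fits and not by DESeq2. Rises numbered 20, 53 and 162 without Veh-CFC replicate 1, 2 or 3 and 24 and 47 without Veh-Context replicate 1 or 2. Falls numbered 2 without Veh-CFC replicate 1, 26 without HDACi-CFC replicate 3, and 5, 25 and 17 without Veh-Context replicate 1, 2 or 3. With library totals the split was 82 rises to 58 falls, 58.6% rises instead of 69.6%.

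The drug given without shock went with lower acetylation at these peaks. Between HDACi-Context and Veh-Context 350 distal strong-promoter peaks fell (15.5%, against 5.85% of all peaks) and 7 rose (0.310%, against 2.73%). No spike-in is named in the sources used here, so a fall here means a smaller share of a library's reads. The median change was -0.29, against -0.01 over all peaks, -0.50 in strong-promoter peaks at a TSS, of which 30.7% fell, and -0.09 in active enhancers. The falls were listed beside 336 genes and had a median of -0.78 (-2.62 to -0.37). The called falls were wide and strongly marked, with a median width of 1662 bp and a median of 7.86 CPM, against 3.06 CPM in peaks not called. In the 613 narrowest tested peaks the median change was -0.37 and 5.38% fell, and in the 167 widest -0.32 and 36.5%. In the 955 and 526 peaks of widths between them it was -0.23 and -0.31, and 12.3% and 26.4% fell. The share called thus grew with width and the median change did not. The part of read depth in these calls was not tested. Falls numbered 182 and 226 without HDACi-Context replicate 2 or 3, and 139 without Veh-Context replicate 3. These fits share the HDACi-Context libraries with those of shock under the drug, so the values of the 2 contrasts are given side by side and not as separate evidence.

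At chrX:12136269-12137339, 23542 bp from the start of Bcor, a corepressor that works with BCL6, the level was 1.57, 1.62 and 2.79 CPM in Veh-Context, 5.01, 3.61 and 1.84 in Veh-CFC, 0.695, 0.174 and 0.136 in HDACi-Context and 4.85, 4.47 and 3.44 in HDACi-CFC. All HDACi-Context libraries were below 1 CPM and all others above it. The drug change in Context was -2.62 ± 0.45 (adjusted p = 0.00013) and the shock change under the drug 3.67 ± 0.40 (adjusted p = 5.7e-09). The Gm29638 start near Zfp324 held 8.81, 11.6 and 13.4 CPM in Veh-Context, 10.9, 13.1 and 12.6 in Veh-CFC, 5.07, 2.84 and 3.67 in HDACi-Context and 6.74, 5.30 and 6.80 in HDACi-CFC. Vehicle libraries were above all drug libraries, and HDACi-Context was below HDACi-CFC. The drug change was -1.55 ± 0.19 in Context (adjusted p = 2.4e-07) and -0.95 ± 0.18 in CFC (adjusted p = 0.0046). At the Gm38989 start near Lrp3, a lipoprotein receptor relative, the level was 14.9, 20.0 and 22.6 CPM in Veh-Context, 21.5, 23.0 and 18.4 in Veh-CFC, 11.1, 10.7 and 7.28 in HDACi-Context and 17.4, 20.3 and 18.3 in HDACi-CFC. The HDACi-Context libraries were again the lowest, with a drug change of -0.98 ± 0.15 (adjusted p = 2.8e-05) and a shock change under the drug of 0.94 ± 0.15 (adjusted p = 6.3e-06). Peaks of Tln2 (-2.19), Spag6 (-2.07), Gm30173 (-2.03) and Plcxd1 (-1.97) were also among the largest falls. Both Lncppara peaks fell, with log2 changes of -1.22 (adjusted p = 4.1e-10) and -0.95 (adjusted p = 5.1e-07).

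**Figure D3:**
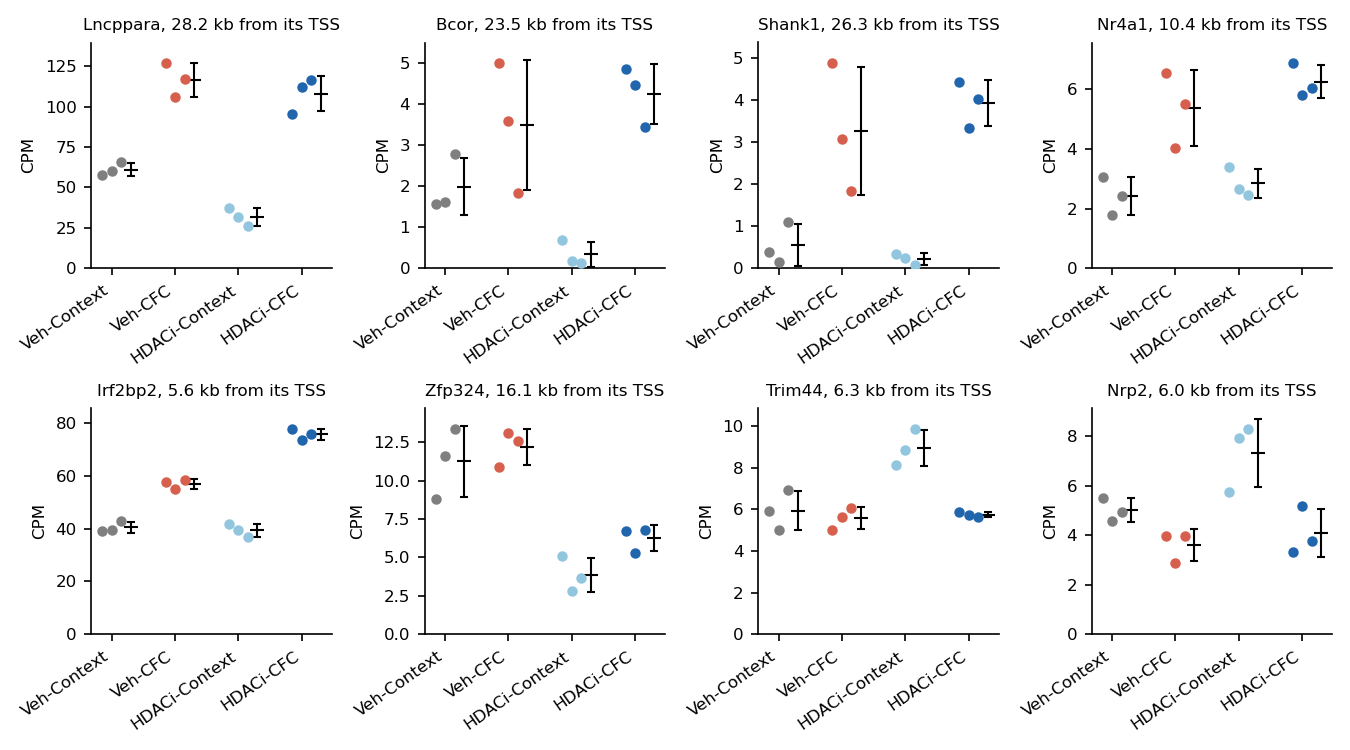
CPM in each library (points) by group at 8 distal strong-promoter peaks, titled by the gene listed and the distance to its TSS; the bar is the mean ± SD (n = 3) and each y axis starts at 0. HDACi-Context is lowest at Lncppara, Bcor and Zfp324 and highest at Trim44 and Nrp2.

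Postsynaptic genes held 11 of these peaks at 7 of 49 genes, and 4 of the 10 tested fell with the drug in Context mice, where 5.85% of all peaks and 15.5% of distal strong-promoter peaks did. Shank2, a scaffold of the postsynaptic density, held 13.4, 16.3 and 16.5 CPM in Veh-Context, 15.7, 17.1 and 19.0 in Veh-CFC, 8.41, 9.27 and 7.41 in HDACi-Context and 13.9, 13.1 and 11.2 in HDACi-CFC at chr7:144131716-144134055. The HDACi-Context libraries were all below 10 CPM and all others above it, with a change of -0.87 ± 0.14 (adjusted p = 5.7e-05). Nlgn3, a neuroligin of the postsynaptic membrane, changed by -1.77 ± 0.25 (adjusted p = 6.2e-06). Dlg2, which encodes PSD-93, had peaks that fell at chr7:90886440-90889056 (-0.67, adjusted p = 0.00076) and chr7:91541879-91545926 (-0.46, adjusted p = 0.009). With shock under the drug 5 of the 10 postsynaptic peaks rose, where 20.2% of all peaks and 33.1% of distal strong-promoter peaks did. The third Dlg2 peak was the 1 that fell (-0.32, adjusted p = 0.025), against 17.8% and 6.06%. Among presynaptic genes 1 of 7 peaks fell with the drug in Context, at Rims2 of the active zone (-0.51). Among voltage-gated channels 1 of 7 fell, at Scn1a, the sodium channel Nav1.1 (-0.44, adjusted p = 0.028), and among cadherin and guidance genes 1 of 12, at Epha3 (-0.54, adjusted p = 0.044). The Epha3 call held in 3 of 12 fits that each left out 1 library and was not made by DESeq2. With shock under the drug each of these 3 lists had 1 rise and 1 fall, the rises including Scn4b (0.67, adjusted p = 0.022) and Epha3 (0.50, adjusted p = 0.023), called in 8 and 9 of 12 fits, and DESeq2 called no channel rise. Of 6 housekeeping peaks 2 fell with the drug in Context, among them that of Ywhaz, a 14-3-3 protein (-0.86). The deacetylase, acetyltransferase and reader list had 3 peaks at 1 gene and no call in edgeR or DESeq2, with 1 peak below 0 at an unadjusted p under 0.05, for shock under the drug. Cell type markers had few such peaks. In edgeR peaks listed for the dentate granule markers Marcks and Pdzd2 and the pyramidal marker Fezf2 were called as rises with shock under the drug. A peak listed for the oligodendrocyte marker Cnp, 10513 bp from its start, was called as a fall with the drug in Context. DESeq2 called 1 of the 2 granule rises and neither Fezf2 nor Cnp. The interneuron-marker calls were the 2 Erbb4 falls and the oligodendrocyte precursor calls those of Sox8. The 4 astrocyte, 1 microglial and 2 endothelial or mural peaks had no call in edgeR or DESeq2, with 1 astrocyte peak at an unadjusted p under 0.05, for the drug in CFC.

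The 7 rises with the drug in Context mice included Trim44, a tripartite motif protein, at chr2:102406045-102408260 with 5.90, 5.01 and 6.91 CPM in Veh-Context, 5.01, 5.62 and 6.09 in Veh-CFC, 8.13, 8.87 and 9.86 in HDACi-Context and 5.87, 5.72 and 5.63 in HDACi-CFC. The HDACi-Context libraries were above all others. The change was 0.56 ± 0.16 (adjusted p = 0.023), and with shock under the drug -0.64 ± 0.16 (adjusted p = 0.0021). Psd3 (1.45), Efcab1 (1.31), Txndc8 (0.95), 4930441J16Rik (0.94) and 2410131K14Rik (0.71) were the others among the 6 largest, each called in 6 to 9 of 12 fits that left out 1 library. Their number was 11, 1 and 0 without HDACi-Context replicate 1, 2 or 3, 2 and 1 without Veh-Context replicate 1 or 3, and 11 without Veh-CFC replicate 1.

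In conditioned mice few of these peaks were called with the drug. This contrast includes Veh-CFC, the group with the lowest mean total count in peaks, and the part of depth was not tested. Between HDACi-CFC and Veh-CFC 24 fell (1.06%, against 0.435% of all peaks) and 1 rose (0.0442%, against 0.483%), with a median change of -0.02 against -0.01 over all peaks. In strong-promoter peaks at a TSS 4.06% fell and the median was -0.24. Falls had a median of -0.66 (-1.08 to -0.56), and 21 of the 24 also fell in Context mice (87.5% of 24 and 6% of 350). This overlap was counted in distal strong-promoter peaks only and is not read as particular to them. Mir99ahg, the host transcript of a cluster with miR-99a, held 97.9, 98.0 and 106 CPM in Veh-Context, 93.0, 108 and 117 in Veh-CFC, 46.4, 53.3 and 49.9 in HDACi-Context and 63.2, 77.0 and 73.8 in HDACi-CFC at chr16:77234710-77243553. All vehicle libraries were above all drug libraries. The drug change was -0.57 ± 0.11 in CFC (adjusted p = 0.004) and -1.01 ± 0.11 in Context (adjusted p = 2e-08). Zbtb43, a zinc finger factor, changed by -0.64 ± 0.14 in CFC (adjusted p = 0.014) and -1.55 ± 0.14 in Context (adjusted p = 4.1e-10). Araf, a Raf kinase, fell by 0.86 on the log2 scale in CFC (adjusted p = 0.01), and Pdcd4, an inhibitor of translation, by 1.08 (adjusted p = 0.045; called in 5 of 12 such fits). Of 55 peaks listed for zinc finger genes 4 fell in CFC (0.435% of all peaks and 1.06% of distal strong-promoter peaks did) and 14 in Context (5.85% and 15.5%). The one rise was at Irf2bp2, a corepressor, at chr8:126584423-126592289 with 39.2, 39.3 and 42.9 CPM in Veh-Context, 57.8, 54.8 and 58.3 in Veh-CFC, 41.9, 39.4 and 36.8 in HDACi-Context and 77.7, 73.4 and 75.9 in HDACi-CFC. Its HDACi-CFC libraries were the highest and its Veh-CFC libraries next, above both Context groups, which overlapped. The change was 0.41 ± 0.11 with the drug in CFC (adjusted p = 0.043; called in 4 of 12 fits that left out 1 library), 0.49 ± 0.11 with shock under vehicle (adjusted p = 0.0054) and 0.94 ± 0.11 with shock under the drug (adjusted p = 3.2e-09). Falls numbered 2, 7 and 3 without HDACi-CFC replicate 1, 2 or 3 and 51, 2 and 8 without Veh-CFC replicate 1, 2 or 3, and rises numbered 18 without Veh-CFC replicate 1.

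Whether the drug acted differently in conditioned and unconditioned mice was tested by the interaction, the drug change in CFC minus that in Context. It was called above 0 at 3 distal strong-promoter peaks (0.133%, against 0.034% of all peaks) and below 0 at none (against 0.000694%). At an unadjusted p under 0.05, 360 were above 0 and 16 below, 376 of 2261 in all. Of all 144014 tested peaks 16531 passed in either direction. DESeq2 called 12 of the distal strong-promoter peaks above 0 and 0 below. Over all 144014 peaks it called 992 above 0 and 3 below. The edgeR median was 0.27 against 0.01 over all peaks, 0.26 in strong-promoter peaks at a TSS and 0.14 in active enhancers. The 3 peaks were those of Bcor (2.89 ± 0.54, adjusted p = 0.037), C430002N11Rik (chr9:96795188-96796230, 1.38 ± 0.28, adjusted p = 0.041) and Lncppara (chr15:85672066-85679163, 0.84 ± 0.16, adjusted p = 0.037). The C430002N11Rik peak held 5.23, 6.33 and 6.84 CPM in Veh-Context, 6.81, 6.36 and 4.95 in Veh-CFC, 2.57, 2.20 and 1.97 in HDACi-Context and 5.87, 6.45 and 5.29 in HDACi-CFC. Its HDACi-Context libraries were all below 3 CPM and the other 9 libraries were above 4 CPM without separating by group. None of the 3 calls held in more than 4 of 12 fits that left out 1 library, and the count was 76, 69 and 29 without HDACi-Context replicate 1, Veh-CFC replicate 1 or Veh-Context replicate 1, 1 without HDACi-CFC replicate 1, and 0 without any other library, with library totals or with loess offsets. Without Veh-CFC replicate 1 the interaction was called below 0 at 3 peaks. Across the 2261 peaks the drug changes in CFC and in Context had Pearson r = 0.19 and Spearman rho = 0.24, and 58.4% had the same sign. These contrasts share no library, and the correlations were taken over distal strong-promoter peaks only.

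**Figure D4:**
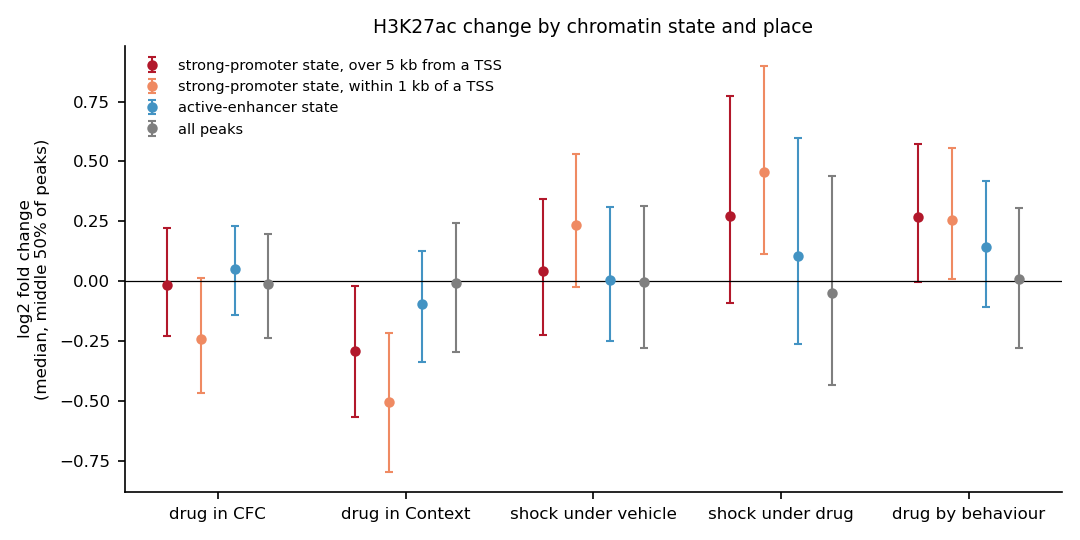
Median log2 fold change (y axis; points) with the middle 50% of peaks (bars) in the 4 simple contrasts and the interaction for distal strong-promoter peaks, strong-promoter peaks within 1000 bp of a TSS, active-enhancer peaks and all peaks. The medians of distal strong-promoter peaks are -0.02, -0.29, 0.04 and 0.27 in the simple contrasts, closer to 0 than those of peaks at a TSS.

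Calls varied with where the peaks lay and how isolated they were. With shock under the drug 45.9% of the 407 peaks 5 to 10 kb from the TSS rose and 1.47% fell, and the shares were 34.0 and 4.75% at 10 to 50 kb, 28.9 and 6.84% at 50 to 100 kb, and 21.4 and 13.5% of the 401 beyond 100 kb. The median change along these classes was 0.46, 0.31, 0.13 and 0.06. Peaks with another peak within 1000 bp rose in 46.1% of 770 cases, and those with none within 10 kb in 20.8% of 710. At termination sites 26 of 39 rose, in exons 28 of 53 tested, in 3′ UTRs 11 of 21, in introns 34.8% and between genes 30.3%. Over all peaks the share of rises was 20.2%, and over distal strong-promoter peaks 33.1%. With a state percent of 100 the share was 49.4% and at 50 or below 23.4%. Of the 167 peaks 3 to 10 kb wide 57.5% rose with shock under the drug, 61 fell with the drug in Context and 27 rose with shock under vehicle. Their median change with shock under the drug was 0.39, against 0.49 in the 613 narrowest tested peaks, of which 34.9% rose. It was 0.20 and 0.24 in the 955 and 526 peaks of widths between them, so it did not grow with width. Peaks with a RefSeq start rose in 60 of 133 cases (45.1%), against 32.3% of those without one. These classes overlap one another and no test of them was made.

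**Figure D5:**
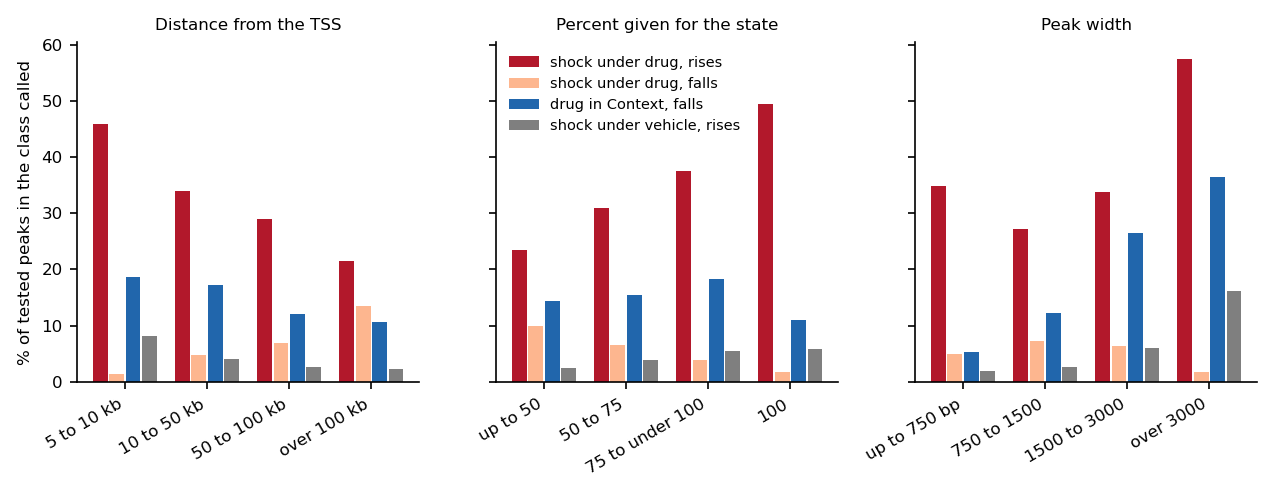
Share of distal strong-promoter peaks called (%, y axis from 0) as rises or falls with shock under the drug, falls with the drug in Context and rises with shock under vehicle, by distance to the TSS, state percent and width. Rises with shock under the drug go from 45.9% at 5 to 10 kb to 21.4% beyond 100 kb while falls go from 1.47% to 13.5%.

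Base composition moved with the groups and is given beside these results. Over the 133 peaks with a RefSeq start the GC content of the window had a Spearman rho of 0.44 with the shock change under the drug, 0.40 with that under vehicle, -0.19 with the drug change in Context and 0.08 with that in CFC, across peaks and without a test. Over all 6226 peaks with a RefSeq start rho was 0.52 and 0.46 for the shock changes under the drug and under vehicle. It was -0.33 for the drug change in Context and -0.01 for that in CFC. For the interaction rho was 0.30 over the 133 peaks and 0.34 over the 6226. The median shock change under the drug was -0.06 in the 28 peaks under 45% GC, 0.80 in those of 55 to 60% and 0.34 in the 16 of 60% or more. Per library, windows of 60% GC or more minus windows under 45% gave differences in mean log2(CPM + 0.5) over all peaks of -0.15 to 0.07 in Veh-Context, 0.18 to 0.63 in Veh-CFC, -0.53 to -0.24 in HDACi-Context and 0.36 to 0.44 in HDACi-CFC. The part of GC content in the shock and drug results was not tested. The peak with the highest level per kilobase, at Lrrc4c, held 38.1, 73.0 and 25.6 CPM in Veh-Context, 173, 138 and 212 in Veh-CFC, 20.9, 8.35 and 10.9 in HDACi-Context and 67.3, 135 and 93.5 in HDACi-CFC. Its Context libraries were below its CFC libraries except that Veh-Context replicate 2 overlapped HDACi-CFC. It rose with shock under the drug (2.89 ± 0.50, adjusted p = 0.0023) and under vehicle (1.97 ± 0.47, adjusted p = 0.043), the latter in 2 of 12 fits that each left out 1 library. For its level the peak was treated as repeat-like, and whether it lies on a repeat was not tested. Its changes are therefore not read as changes at Lrrc4c. Without this peak, an alternative chosen after seeing the data, HDACi-Context remained the lowest group at 1.11% of counts against 1.32% in Veh-Context.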

How the data were processed

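H3K27ac was measured in 12 libraries, 3 in each of 4 groups, and 12 input libraries were not analysed here. Per the submitters' processing notes the build was mm10 and the tools HOMER 4.11, DESeq2 1.28.1, DiffBind 2.16.2, MACS2, SAMtools 1.9, Bowtie2 2.3.5 and Trimmomatic 0.38; the role and settings of each are not given in the sources used here. The authors deposited whole-number read counts for each peak, unscaled as far as the values show, with a smallest count of 1. The percent deposited beside each ChromHMM state has no description and was used only to sort peaks into classes, and the map behind the state is not stated. Column names give no antibody; each group and replicate has 1 column, taken as its H3K27ac library. About 750000 nuclei and 14 PCR cycles were used per the labels' protocols.

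Counts were tested with edgeR 4.0.16 (R 4.3.3) by the quasi-likelihood F test on all 144014 peaks that passed filterByExpr (minimum count 10), with TMM factors, robust estimation and 1 term per group. Of the 2262 peaks described, 2261 were tested. Calls needed an adjusted p (Benjamini-Hochberg, over all tested peaks) under 0.05; errors of log2 changes are SE. The median biological coefficient of variation was 0.131, and the script was tested on simulated data. Counts of replicates differed by more than sampling noise in every pair (chi-square per degree of freedom from 1.35 to 3.18). Nothing says that libraries came from separate animals, so p-values measure the spread between these libraries, which may be technical. Alternatives used library totals, RLE factors, loess offsets (limma 3.58.1), DESeq2 1.42.0, no filter, only the groups compared, a replicate block, each library left out, and other widths and distances.

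Named peaks were the 6 largest called rises and falls in each simple contrast whose libraries did not overlap, the 4 largest per direction in the interaction, the 10 highest in CPM per kb, the 3 nearest each threshold, and called peaks of listed genes. The Tnrc18, Zmiz1 and Lrp3 peaks, the genes with starts in a peak and Tenm3 were added after values were seen. Some named peaks are not reported here. The peaks, gene lists and tests were chosen with earlier results of these data known. Of the 1831 symbols 1807 were found in the RefSeq table of GRCm38.p6, whose windows lie on that assembly.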

Additional observations from a re-analysis of the deposited data

Results flagged for a closer look

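The test of the difference between the drug effect in conditioned and in unconditioned mice passed the threshold at 3 distal strong-promoter peaks. The difference was 2.89 on the log2 scale at the Bcor peak, where the drug change was -2.62 in Context mice and 0.27 in CFC mice. At the C430002N11Rik peak the difference was 1.38, with drug changes of -1.44 in Context and -0.05 in CFC. At the narrower Lncppara peak it was 0.84, with drug changes of -0.95 and -0.11. The highest adjusted p over fits that each left out 1 library was 0.33 at Bcor, 0.33 at C430002N11Rik and 0.33 at Lncppara, and the calls held in 3, 3 and 4 of 12 such fits.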

How the results depend on the processing

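Counts of called distal strong-promoter peaks moved by over 1.5 times as follows. With DESeq2 there were 3 rises with the drug in CFC, 1 rise with the drug in Context, 61 rises and 17 falls with shock under vehicle, 72 falls with shock under the drug and 12 positive interactions. With library totals there were 12 rises with the drug in Context, 240 falls with shock under the drug and 0 positive interactions. With loess offsets 42 peaks fell with the drug in CFC and 0 positive interactions were called. Fits of only the groups compared gave 0 rises and 15 falls with the drug in CFC and 20 falls with shock under vehicle. Peaks under 5000 bp wide, over 10000 bp from a TSS, or with the nearer edge over 5000 bp away gave 0 rises with the drug in CFC, and those over 10000 bp away gave 63 rises with shock under vehicle. For peaks under 5000 bp wide the share of counts was 0.918% in HDACi-Context, 1.01% in HDACi-CFC and 1.09% in both vehicle groups, and for those over 10000 bp away it was 0.892% and 0.986% with the drug and 1.06% and 1.07% in Veh-Context and Veh-CFC.

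Leaving out 1 library at a time gave 0 to 18 rises and 2 to 51 falls with the drug in CFC, and 0 to 11 rises and 139 to 405 falls with the drug in Context. Shock under vehicle gave 20 to 162 rises and 2 to 57 falls, shock under the drug 556 to 785 rises and 56 to 172 falls, and the interaction 0 to 76 positive and 0 to 3 negative calls. With the replicate number as a block there were 1 rise and 27 falls with the drug in CFC, 6 and 341 in Context, 94 and 37 with shock under vehicle, 738 and 136 under the drug, and 3 and 0 interactions, so no count moved by over 1.5 times. Same-numbered libraries deviated together with correlations of -0.28 to 0.35 (median 0.0007 over 18 pairs), so the numbers do not pair the libraries. Over the named peaks, 169 calls were refitted under 3368 alternatives: 2920 kept the call and its direction, 448 lost the call and 0 reversed, and 74 calls were kept under every one. DESeq2 lost 46, loess offsets 25, library totals 21 and the block 3. Counts of 1 set to 0, chosen after seeing the data, lost 3. Depth limits the empty peaks, since 115 values of the peaks described stood at the minimum count of 1.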
